A study of Homo sapiens with 9 samples.

Results

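The genes of the integrated stress response and of serine and one-carbon metabolism were followed in PANC-1, an epithelial line from a human pancreatic carcinoma, after transfection of a microRNA-520f mimic. A list of 39 genes was used, and each was read by its symbol through the one probe set that the array annotation gives to that symbol alone. Of the 39, 33 were measured among 14232 genes tested. PSPH and GDF15 have a probe set that is also assigned to NUPR2 and to MIR3189, respectively, and MTHFD1L, ALDH1L2, PYCR1 and GPT2 were not analysed here. RNA was taken 72 h after transfection from 3 groups of 3 biological replicates: cells given Lipofectamine RNAiMAX without any RNA (labelled non-transfected), cells given 20 nM of a mirVana negative control mimic, and cells given 20 nM of a mirVana miR-520f mimic. All cells grew in RPMI-1640 with 10% serum and 2 mM glutamine, and no group was labelled as starved. A mimic is a short synthetic RNA duplex that loads the silencing complex as the microRNA it copies. How the replicate cultures were kept apart is not stated in the labels, and the spread behind each p-value may therefore be technical.

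The integrated stress response lowers general protein synthesis when cells lack amino acids or haem, accumulate unfolded protein or carry double-stranded RNA. Kinases that sense these states phosphorylate the translation factor eIF2 on its alpha subunit, which blocks the exchange factor eIF2B, while the transcript of ATF4 is translated more. ATF4 then pairs with other basic leucine zipper factors and activates genes of amino acid uptake and synthesis, among them the serine pathway that feeds carbon units into the folate cycle, and DDIT3 (CHOP), ATF3 and TRIB3. Because ATF4 is controlled mainly at translation, its transcript level is not a measure of its protein.

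The sequences below show the microRNA that was raised and how its seed is placed against relatives. Mature sequences are from RefSeq (GRCh38.p14), capitals mark bases 2 to 8, and miR-520f-3p lies at chr19:53682213-53682234 on the plus strand. The labels do not state the arm that the mimic copies, so both arms are printed. Among 2370 mature human microRNAs in the table, 1, miR-520f-3p itself, carries its seed at bases 2 to 8. In 11 others, miR-520c-3p, miR-302a-3p and miR-373-3p among them, the same 7 letters sit at bases 3 to 9, so that their own seeds start 1 base earlier.
hsa-miR-520f-3p: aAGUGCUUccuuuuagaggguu
hsa-miR-520f-5p: cCUCUAAAgggaagcgcuuucu
hsa-miR-520c-3p: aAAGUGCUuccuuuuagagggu
hsa-miR-302a-3p: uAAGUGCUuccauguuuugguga
hsa-miR-373-3p: gAAGUGCUucgauuuuggggugu

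The values are log2 intensities after RMA, which runs from 2.23 to 13.6 here with array medians between 4.22 and 4.34. Differences are in log2 units, each probe set is compared only with itself, and a gene was called when its limma p-value, adjusted over all 14232 genes by Benjamini-Hochberg, was under 0.05. Replicate 1 of the negative control stood apart. Its deviations from its group mean, as root mean square over all genes, came to 0.169 against 0.0698 to 0.131 on the other 8 arrays. It held the lowest of the 9 values for 11 of the 33 members, beside 9 for non-transfected replicate 3, and the highest for 6. All 7 epithelial markers were measured and the highest, the keratin KRT8, reached 11.8. The 5 endothelial and 4 acinar or islet markers measured stayed at or below 3.61. The lowest value in the epithelial list, 3.43, lay within the range of those markers. The epithelial markers changed in both directions with miR-520f: EPCAM rose by 1.57 and 1.68 (adjusted p = 1.56e-06 and 9.18e-07, in the order non-transfected, negative control) and CDH1 by 1.07 and 1.15 (2.20e-06 and 1.25e-06), while KRT19 fell by 0.75 and 0.68 (0.000121 and 0.000239). The mean of the epithelial list ran from 7.69 to 7.84 in non-transfected, from 7.65 to 7.75 in negative control and from 8.01 to 8.09 in miR-520f cells, and its part in the results below was not tested. The 6 fibroblast and 6 immune markers measured stayed at or below 4.09, except COL1A1 and CD68. CD68, a lysosomal membrane protein that is not limited to macrophages, fell with miR-520f by 1.31 and 0.90 against the non-transfected and negative control cells (adjusted p = 7.06e-06 and 9.28e-05). The mean of the immune list ran from 4.28 to 4.45, from 4.30 to 4.38 and from 4.02 to 4.18 on the non-transfected, negative control and miR-520f arrays, and its part was not tested either. In such bulk RNA, fewer cells of a kind and less RNA per cell cannot be told apart.

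Against non-transfected cells, 12 members were higher and 5 lower with miR-520f, where 14.5% and 13.1% of all genes were called higher and lower. Against the negative control, 9 members were higher and 8 lower, beside 15.4% and 12.6% of all genes. With equal sign against both controls, 7 rose (EIF2B1, DDIT3, JDP2, NUPR1, STC2, TRIB3 and SHMT1) and 4 fell (EIF2AK1, ATF5, VLDLR and VEGFA), which is 21.2% and 12.1% of the measured members beside 9.37% and 8.61% of all genes. SESN2 was called with opposite signs, 10 members were called against 1 control, and 11 against neither. The comparisons share the miR-520f arrays, so a call in one is not independent of a call in the other. The median log2 fold change of the members was 0.12 against non-transfected and -0.06 against negative control cells, beside -0.03 and -0.03 over all genes. Without negative control replicate 1, 9 members rose and 6 fell against both controls. The shares of all genes include dim genes, which were called less often. With genes under the median gene mean of 4.53 left out, 2306 genes were called with equal sign against both controls, beside 2559 before. Of the members only SHMT1, VLDLR and FGF21 were left out there, and 6 rose and 3 fell. The share of all genes is thus below that of brighter genes, and a higher share of members is not read as their trait.

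**Figure D1:**
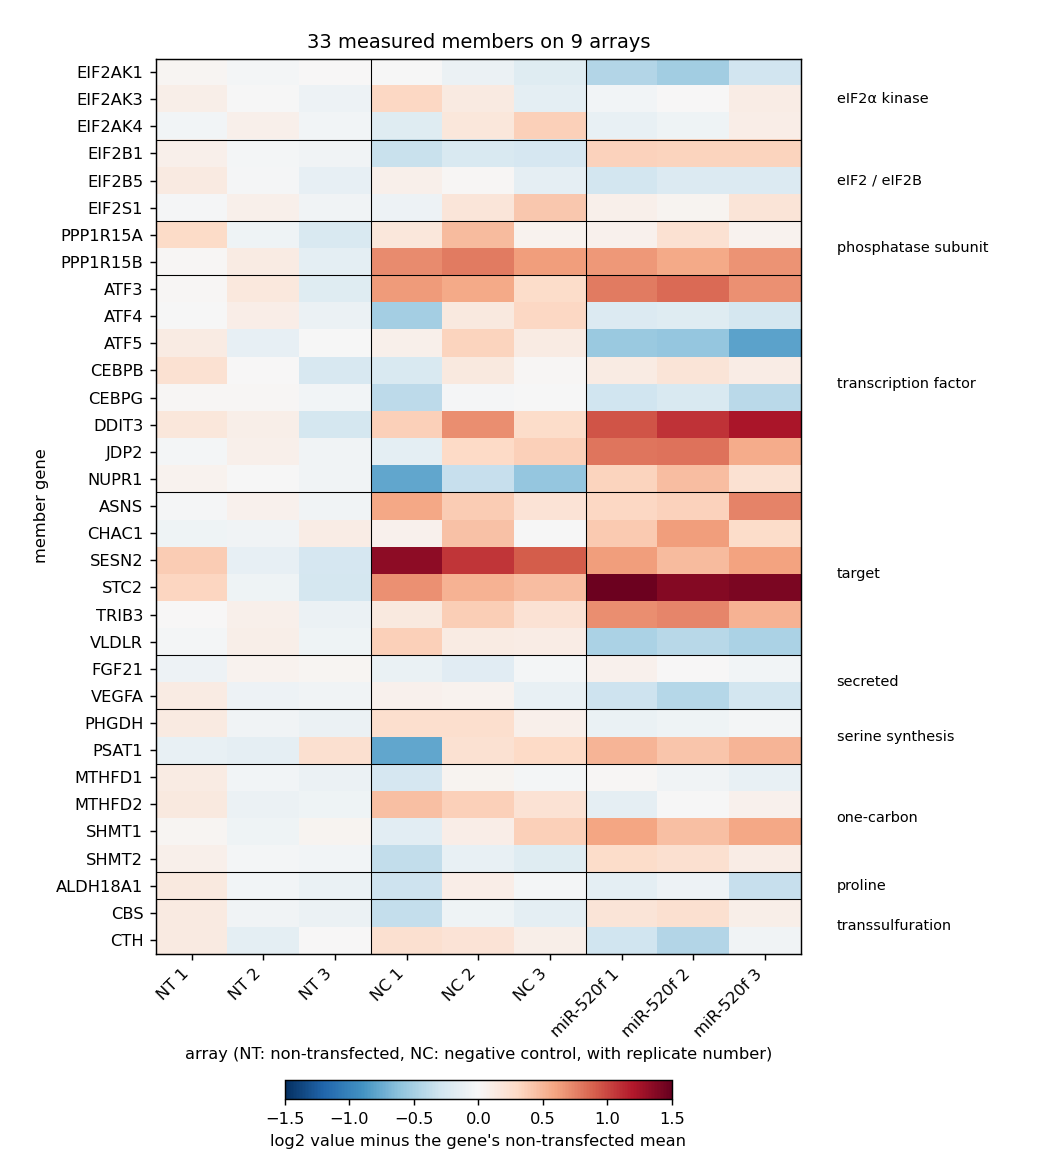
The 33 measured members (rows, grouped by role) on the 9 arrays (columns, by group and replicate); colour gives the log2 value minus the gene's mean in non-transfected cells. The miR-520f columns are darkest red for STC2 and DDIT3, PPP1R15B and SESN2 are red in both mimic groups, and negative control replicate 1 is bluest for NUPR1, PSAT1 and ATF4.

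**Figure D2:**
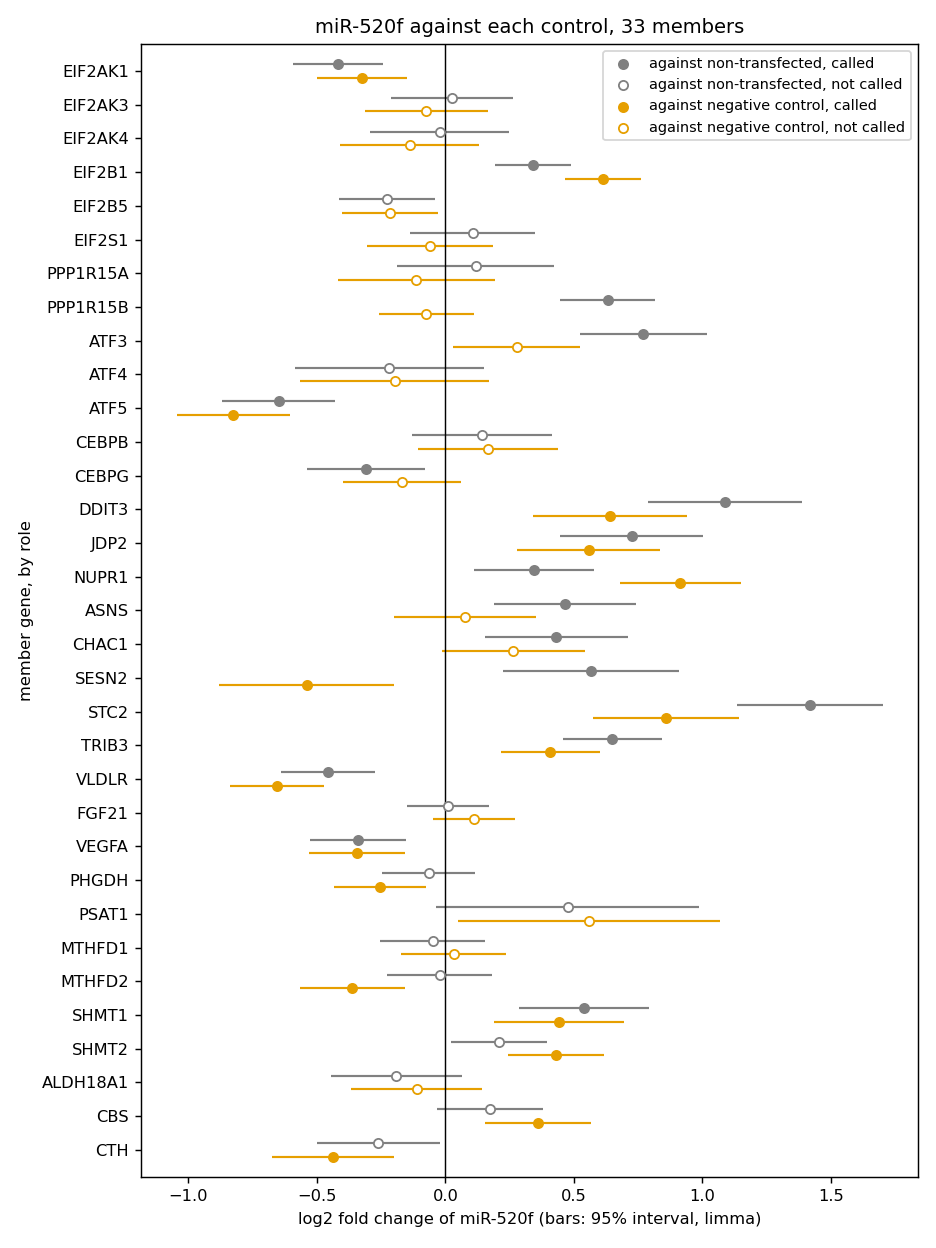
Log2 fold change of miR-520f against non-transfected (grey) and negative control cells (orange) for the 33 members, with 95% limma intervals; filled points were called. Both points lie to the right of 0 and are filled for 7 members, to the left and filled for 4, and on opposite sides and filled for SESN2.

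The eIF2 kinases were described by their transcripts, which do not report kinase activity. EIF2AK1 (HRI, the haem-regulated kinase, which also relays mitochondrial stress) fell. It measured 10.48, 10.42 and 10.46 in non-transfected, 10.44, 10.37 and 10.28 in negative control and 10.02, 9.93 and 10.16 in miR-520f cells, so that the 3 miR-520f arrays lay below all 6 control arrays. The log2 fold changes were -0.42 and -0.33 (SE 0.08 each, limma adjusted p = 0.00218 and 0.00932), here and below in the order non-transfected, negative control. EIF2AK3 (PERK, the kinase of the endoplasmic reticulum) and EIF2AK4 (GCN2, which binds uncharged tRNA) were not called, at 0.03 and -0.07 and at -0.02 and -0.14. Their 95% intervals reached from -0.31 to 0.26 and from -0.41 to 0.25 over both comparisons. EIF2AK4 was called lower against the negative control without replicate 1 of that group (-0.29, adjusted p = 0.0374), and without negative control replicate 3 the difference was -0.02 (adjusted p = 0.932).

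Among the subunits of eIF2 and its exchange factor, EIF2B1, the regulatory alpha subunit of eIF2B, rose. Its values were 8.37, 8.27 and 8.25 in non-transfected, 7.96, 8.06 and 8.04 in negative control and 8.65, 8.63 and 8.63 in miR-520f cells, with no overlap between any of the groups. The rise was 0.34 and 0.61 (SE 0.07 each, limma adjusted p = 0.00280 and 4.80e-05). The negative control stood 0.27 below the non-transfected cells (adjusted p = 0.0185), a call that was lost without non-transfected replicate 1 (adjusted p = 0.0588) or 2 (0.0564). EIF2B5, the catalytic epsilon subunit, lay lower on the 3 miR-520f arrays (5.03 to 5.09) than on the control arrays (5.16 to 5.43) but was not called, at -0.23 and -0.22 (adjusted p = 0.0720 and 0.0850). It passed against one control without non-transfected replicate 3 (adjusted p = 0.0417) and against the other without negative control replicate 3 (0.0414). EIF2S1, the alpha subunit of eIF2 itself, was not called (0.11 and -0.06).

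The phosphatase that reverses the signal has a stress-induced and a constitutive targeting subunit. PPP1R15A (GADD34), the induced one, was not called in any comparison, with log2 fold changes of 0.12 and -0.11. PPP1R15B (CReP), the constitutive one, was higher with both mimics: 8.29, 8.40 and 8.13 in non-transfected, 8.98, 9.06 and 8.90 in negative control and 8.93, 8.84 and 8.95 in miR-520f cells. All 6 mimic arrays lay above all 3 arrays without RNA. The difference from non-transfected cells was 0.63 for miR-520f (SE 0.08, adjusted p = 0.000202) and 0.70 for the negative control (SE 0.08, adjusted p = 0.000324), and between the mimics it was -0.07 (95% interval -0.26 to 0.11).

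Among the 8 transcription factors, 3 rose and 1 fell against both controls, beside 9.37% and 8.61% of all genes. ATF4, the central factor, measured 5.97, 6.08 and 5.89 in non-transfected, 5.47, 6.13 and 6.29 in negative control and 5.78, 5.79 and 5.72 in miR-520f cells. The miR-520f arrays lay below every control array but negative control replicate 1, which was the lowest of the 9. In the fit of all arrays ATF4 was not called, at -0.22 and -0.20 (SE 0.17 each, limma adjusted p = 0.443 and 0.463). Without negative control replicate 1 it was called lower against both, at -0.22 (adjusted p = 0.0461) and -0.44 (0.00236), and with the negative control group left out of the fit it was called against non-transfected cells (adjusted p = 0.0469). With negative control replicate 3 left out instead, its difference from that group was -0.04 (adjusted p = 0.907). In no setting was ATF4 called higher with miR-520f.

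DDIT3, the CHOP protein that ATF4 induces and that is linked to cell death under lasting stress, rose most among the factors against non-transfected cells. It went from 6.74, 6.65 and 6.31 through 6.93, 7.27 and 6.85 to 7.52, 7.65 and 7.80 in the order non-transfected, negative control, miR-520f, with no overlap between any of the 3 groups. The miR-520f level was 2.12-fold and 1.56-fold that of the controls (log2 1.09 and 0.64, SE 0.14 each, adjusted p = 0.000129 and 0.00425). JDP2, a repressor of the AP-1 family that can pair with CHOP and ATF3, measured 5.58, 5.68 and 5.56, then 5.46, 5.91 and 5.96, then 6.41, 6.43 and 6.16 in the same order. Its miR-520f arrays lay above all 6 control arrays, at 0.72 and 0.56 (SE 0.13 each, adjusted p = 0.00128 and 0.00626).

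NUPR1, a small stress-induced chromatin protein first described in pancreatitis, was at 10.19, 10.13 and 10.09 in non-transfected, 9.36, 9.79 and 9.55 in negative control and 10.47, 10.60 and 10.37 in miR-520f cells. The groups did not overlap, and the negative control was the lowest. The rise was 0.91 against the negative control (SE 0.11, adjusted p = 7.28e-05) and 0.34 against non-transfected cells (SE 0.11, adjusted p = 0.0319). The smaller difference was not called without non-transfected replicate 1, 2 or 3 (adjusted p = 0.0512, 0.0850 and 0.0963) or without miR-520f replicate 1 or 2 (0.0792 and 0.123). Nor was it called after a further quantile normalization (adjusted p = 0.0550), without variance moderation (0.0963) or with all probe sets tested together (0.0566).

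ATF5, a factor made from a stress-regulated transcript like ATF4 and active in the mitochondrial stress response, moved the other way. It measured 5.98, 5.73 and 5.85 in non-transfected, 5.93, 6.18 and 5.97 in negative control and 5.29, 5.27 and 5.05 in miR-520f cells. All 3 miR-520f arrays lay below the controls, and the fall was 0.65 and 0.82 (log2 fold changes -0.65 and -0.82, SE 0.10 each, adjusted p = 0.000544 and 9.84e-05). ATF3, a repressor of the same family, measured 4.74, 4.89 and 4.55, then 5.36, 5.29 and 5.00, then 5.50, 5.57 and 5.41 in the same order of groups. It rose against non-transfected cells by 0.77 with miR-520f (SE 0.11, adjusted p = 0.000369) and by 0.49 with the negative control (SE 0.11, adjusted p = 0.0126). The rise with the negative control was not called without variance moderation (adjusted p = 0.0722). The step from the negative control to miR-520f, 0.28 (SE 0.11, adjusted p = 0.0935), was not called in the fit of all arrays and was called without negative control replicate 1 (0.35, adjusted p = 0.0476) and with the replicate number as a block (adjusted p = 0.0264).

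Of the C/EBP partners of ATF4, CEBPB was not called in any comparison (0.14 and 0.16). CEBPG, which dimerises with ATF4 at amino acid response elements, was called lower against non-transfected cells (-0.31, adjusted p = 0.0474) while the difference from the negative control was -0.17 (adjusted p = 0.292). The first call was lost without any one of the non-transfected arrays (adjusted p from 0.0807 to 0.126), without any one of the miR-520f arrays (0.0600 to 0.163) and without negative control replicate 2 (0.0504). It was also lost after centring the arrays on the median (-0.24, adjusted p = 0.150). Without negative control replicate 1, CEBPG was called against the negative control as well (-0.30, adjusted p = 0.0119).

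**Figure D3:**
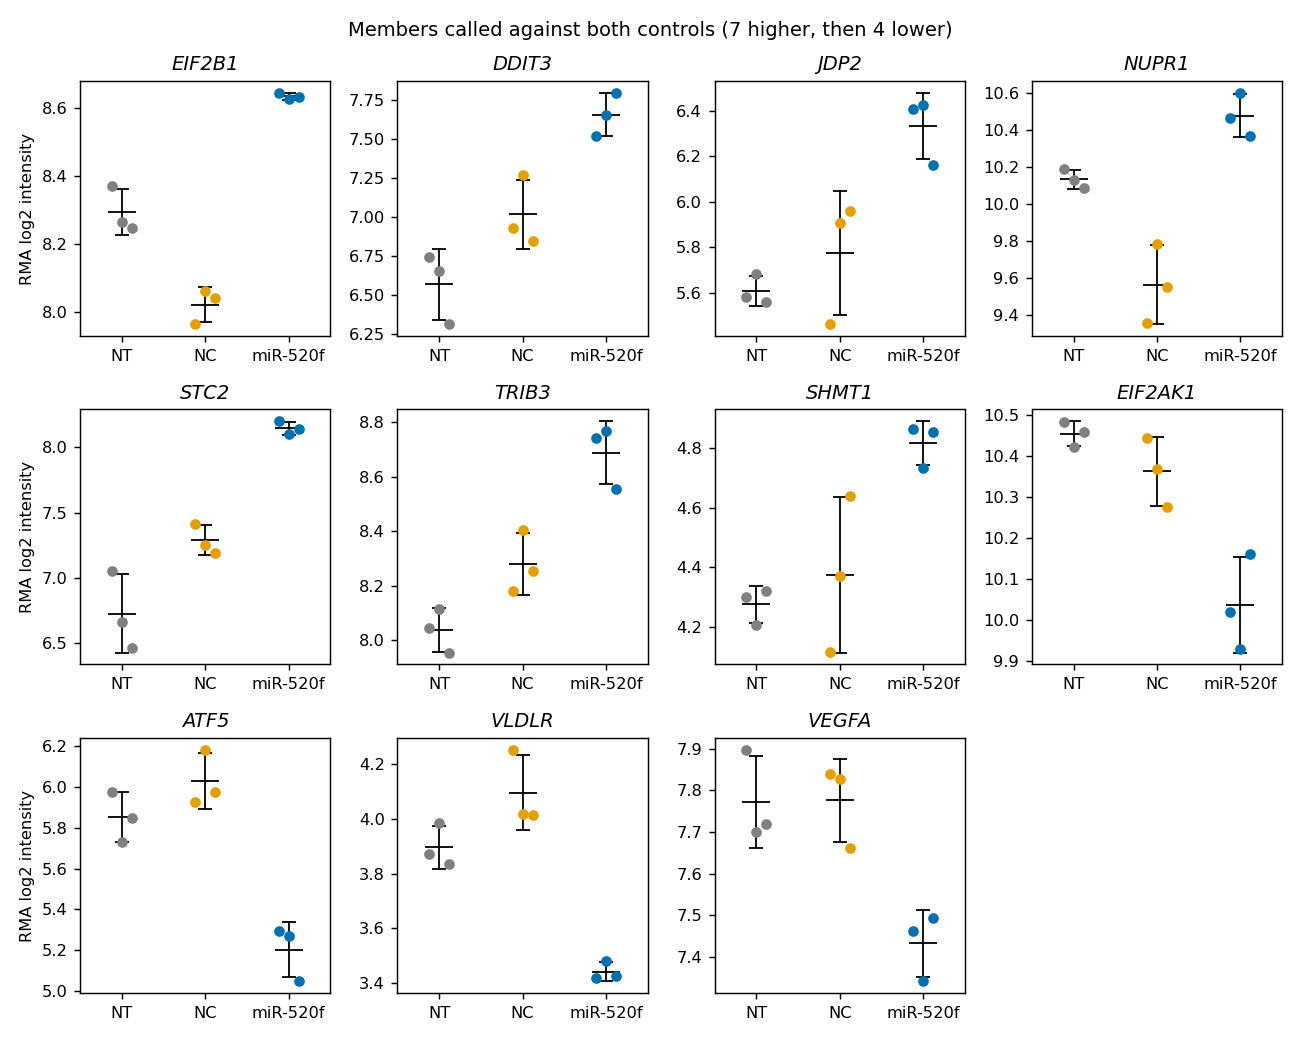
RMA log2 intensity on each array of the 11 members called with equal sign against both controls, 7 higher and 4 lower; points are arrays, bars the mean ± SD of 3 arrays, NT is non-transfected and NC negative control, and each axis has its own range. In each panel the 3 miR-520f points lie apart from all 6 control points, but the panels were chosen by those calls. Over all genes the miR-520f arrays lay above all control arrays in 13.2% and below in 12.1%.

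Of the 6 measured targets of the response, 5 were higher and 1 lower than in non-transfected cells, beside 14.5% and 13.1% of all genes. Against the negative control 2 were higher and 2 lower, beside 15.4% and 12.6%. With the negative control 2 targets, SESN2 and STC2, were already higher than without RNA, beside 7.00% of all genes. STC2, a secreted glycoprotein that ATF4 induces, rose most of the 33 members against non-transfected cells. It measured 7.05, 6.67 and 6.46 in non-transfected, 7.42, 7.25 and 7.19 in negative control and 8.20, 8.10 and 8.14 in miR-520f cells, and no group overlapped another. The level with miR-520f was 2.67-fold that of non-transfected cells (log2 1.42, SE 0.13, adjusted p = 1.38e-05) and 1.81-fold that of the negative control (0.86, SE 0.13, adjusted p = 0.000433). TRIB3, a pseudokinase that restrains ATF4 and AKT, followed the same order with 8.05, 8.11 and 7.95, then 8.18, 8.40 and 8.25, then 8.74, 8.77 and 8.56, again without overlap. It rose by 0.65 and 0.41 (SE 0.09 each, adjusted p = 0.000215 and 0.00439), while the step between the controls, 0.24, was not called (adjusted p = 0.0970).

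ASNS, which makes asparagine and is a standard readout of amino acid shortage, was at 9.20, 9.28 and 9.15 in non-transfected, 9.79, 9.59 and 9.41 in negative control and 9.52, 9.55 and 9.95 in miR-520f cells. Both mimic groups lay above all non-transfected arrays and overlapped each other. The difference from non-transfected cells was 0.47 with miR-520f (SE 0.13, adjusted p = 0.0160), which was lost without non-transfected replicate 3 (adjusted p = 0.0550) or miR-520f replicate 3 (0.0581). The negative control stood 0.39 above non-transfected cells (adjusted p = 0.0600), and this passed without negative control replicate 3 (0.0310) or miR-520f replicate 3 (0.0245). Between the mimics ASNS differed by 0.08 (95% interval -0.20 to 0.35).

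CHAC1, which degrades glutathione, was called higher against non-transfected cells. It measured 9.32, 9.33 and 9.50, then 9.45, 9.83 and 9.38, then 9.78, 10.01 and 9.66 in the order non-transfected, negative control, miR-520f, and 1 negative control array overlapped the miR-520f arrays. The difference was 0.43 (SE 0.13, adjusted p = 0.0250) and 0.26 (adjusted p = 0.160). The first was lost without non-transfected replicate 1 or 2 (adjusted p = 0.0776 and 0.0822) or miR-520f replicate 1 or 2 (0.0550 and 0.104), and the second passed without negative control replicate 2 (0.40, adjusted p = 0.0235). The first was also lost after a further quantile normalization (0.41, adjusted p = 0.0706).

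VLDLR, a lipoprotein receptor that PERK and ATF4 raise in other settings, fell at a low level. It was at 3.87, 3.99 and 3.83 in non-transfected, 4.25, 4.02 and 4.01 in negative control and 3.42, 3.48 and 3.42 in miR-520f cells. The miR-520f arrays lay below all controls, with a fall of 0.46 and 0.65 (log2 fold changes -0.46 and -0.65, SE 0.08 each, adjusted p = 0.00164 and 0.000133). Array differences at such low signals are compressed.

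SESN2, which binds leucine and holds back mTOR complex 1, was the member in which the controls differed most. It measured 7.50, 7.01 and 6.87 in non-transfected, 8.47, 8.19 and 8.04 in negative control and 7.75, 7.60 and 7.73 in miR-520f cells, so that the miR-520f arrays lay between the control groups without overlapping either. The negative control was 2.15-fold above non-transfected cells (log2 1.11, SE 0.15, adjusted p = 0.000836). With miR-520f SESN2 was 0.57 above non-transfected cells (SE 0.15, adjusted p = 0.0175) and 0.54 below the negative control (log2 fold change -0.54, SE 0.15, adjusted p = 0.0221). The first of these was lost without non-transfected replicate 2 or 3 (adjusted p = 0.0678 and 0.0742) or miR-520f replicate 1 or 3 (0.0584 and 0.0600), and the second without negative control replicate 1 (0.0760) or miR-520f replicate 2 or 3 (0.0767 and 0.0537). Neither was called without variance moderation (adjusted p = 0.0935 and 0.1055).

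The promoters of the members were searched for the C/EBP-ATF response element, the composite site at which ATF4 pairs with a C/EBP factor, with the letters TGATGNAA on either strand. RefSeq promoter windows (GRCh38.p14) of 250 bases before to 50 after each start were found for 31 of the 39 genes, 48 windows in all. The letters were in 10 windows of 8 genes, beside 3.62% of all 35116 windows. They are shown for the 7 of these genes that were measured, with the bases around it, 5′ to 3′ on the gene's strand, and capitals mark the match. The MTHFD1L windows that share 1 match are not shown, since that gene has no value here.
PPP1R15B, chr1:204412007-204412067, minus strand: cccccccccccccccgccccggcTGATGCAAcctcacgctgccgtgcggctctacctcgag
ATF3, chr1:212565186-212565253, plus strand: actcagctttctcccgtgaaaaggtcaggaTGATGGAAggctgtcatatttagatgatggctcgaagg
ASNS, chr7:97872439-97872506, minus strand: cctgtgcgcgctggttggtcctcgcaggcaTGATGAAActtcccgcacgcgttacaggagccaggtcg
JDP2, chr14:75427976-75428043, plus strand: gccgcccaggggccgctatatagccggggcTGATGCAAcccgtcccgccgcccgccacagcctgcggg
CHAC1, chr15:40953232-40953299, plus strand: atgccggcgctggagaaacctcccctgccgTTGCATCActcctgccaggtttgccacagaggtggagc
CEBPG, chr19:33374041-33374108, plus strand: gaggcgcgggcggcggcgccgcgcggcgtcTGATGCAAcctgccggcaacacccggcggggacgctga
FGF21, chr19:48755440-48755507, plus strand: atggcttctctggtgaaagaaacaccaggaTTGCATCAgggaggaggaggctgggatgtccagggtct

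Counted from the start of the gene, the matches began at -227, -191, -68, -16, -209, -42 and -54 in the order printed. CHAC1 and FGF21 carry it on the opposite strand. Of these genes PPP1R15B, ATF3, ASNS, JDP2 and CHAC1 were called higher with miR-520f than in non-transfected cells, CEBPG lower, and FGF21 was not called. Over all genes 14.5% and 13.1% were called higher and lower there, and among the measured members 12 and 5 of 33. PPP1R15B and ATF3 were also called higher with the negative control than without RNA. Against the negative control only JDP2 of the 7 was called, beside 15.4% higher and 12.6% lower among all genes. STC2, DDIT3 and TRIB3, which rose against both controls, held no match in their windows, and sites outside the windows were not searched. The letters TGACGTCA of the cAMP response element, searched on both strands, were in 1 window of the members, that of PPP1R15A, beside 1.85% of all windows, and no member window held both motifs. A match here is a string of letters and not a binding measurement.

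Secreted outputs of the response were FGF21, a hormone of fasting, VEGFA, the angiogenic factor, and GDF15, which has no value. VEGFA fell, from 7.90, 7.70 and 7.72 in non-transfected and 7.84, 7.83 and 7.66 in negative control to 7.46, 7.34 and 7.49 in miR-520f cells. The miR-520f arrays lay below all controls, at -0.34 against each (SE 0.08, adjusted p = 0.0105 and 0.00972). FGF21 stayed between 2.99 and 3.23 on all arrays, near the lower end of the scale, and was not called.

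In serine synthesis, PHGDH catalyses the first step from glycolysis and PSAT1 the transamination that follows. PHGDH measured 10.76, 10.58 and 10.54 in non-transfected, 10.87, 10.87 and 10.70 in negative control and 10.52, 10.56 and 10.60 in miR-520f cells. The miR-520f arrays lay below the negative control and among the non-transfected arrays, at -0.06 (adjusted p = 0.689) and -0.25 (SE 0.08, adjusted p = 0.0387). That call was lost after centring the arrays on the median (-0.21, adjusted p = 0.0955) and after a further quantile normalization (-0.22, adjusted p = 0.116). It was also lost without non-transfected replicate 2 (adjusted p = 0.0580), without negative control replicate 1 or 2 (0.0911 and 0.121) and without any one miR-520f array (0.0655 to 0.135).

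PSAT1 measured 10.59, 10.57 and 10.95 in non-transfected, 9.93, 10.93 and 11.00 in negative control and 11.21, 11.12 and 11.21 in miR-520f cells. The 3 miR-520f arrays were the highest of the 9, but replicate 1 of the negative control was the lowest and the SD of that group was 0.60. PSAT1 was not called in the fit of all arrays, at 0.48 and 0.56 (SE 0.23 each, adjusted p = 0.179 and 0.103). Without negative control replicate 1 it was called against non-transfected cells (0.48, adjusted p = 0.00374), but its difference from the negative control was then 0.21 and not called. That difference was 0.75 without negative control replicate 3, and was called (adjusted p = 0.0341). Over all genes, the miR-520f arrays lay above all control arrays in 13.2% and below in 12.1%, and among the members in 10 and 5 of 33.

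**Figure D4:**
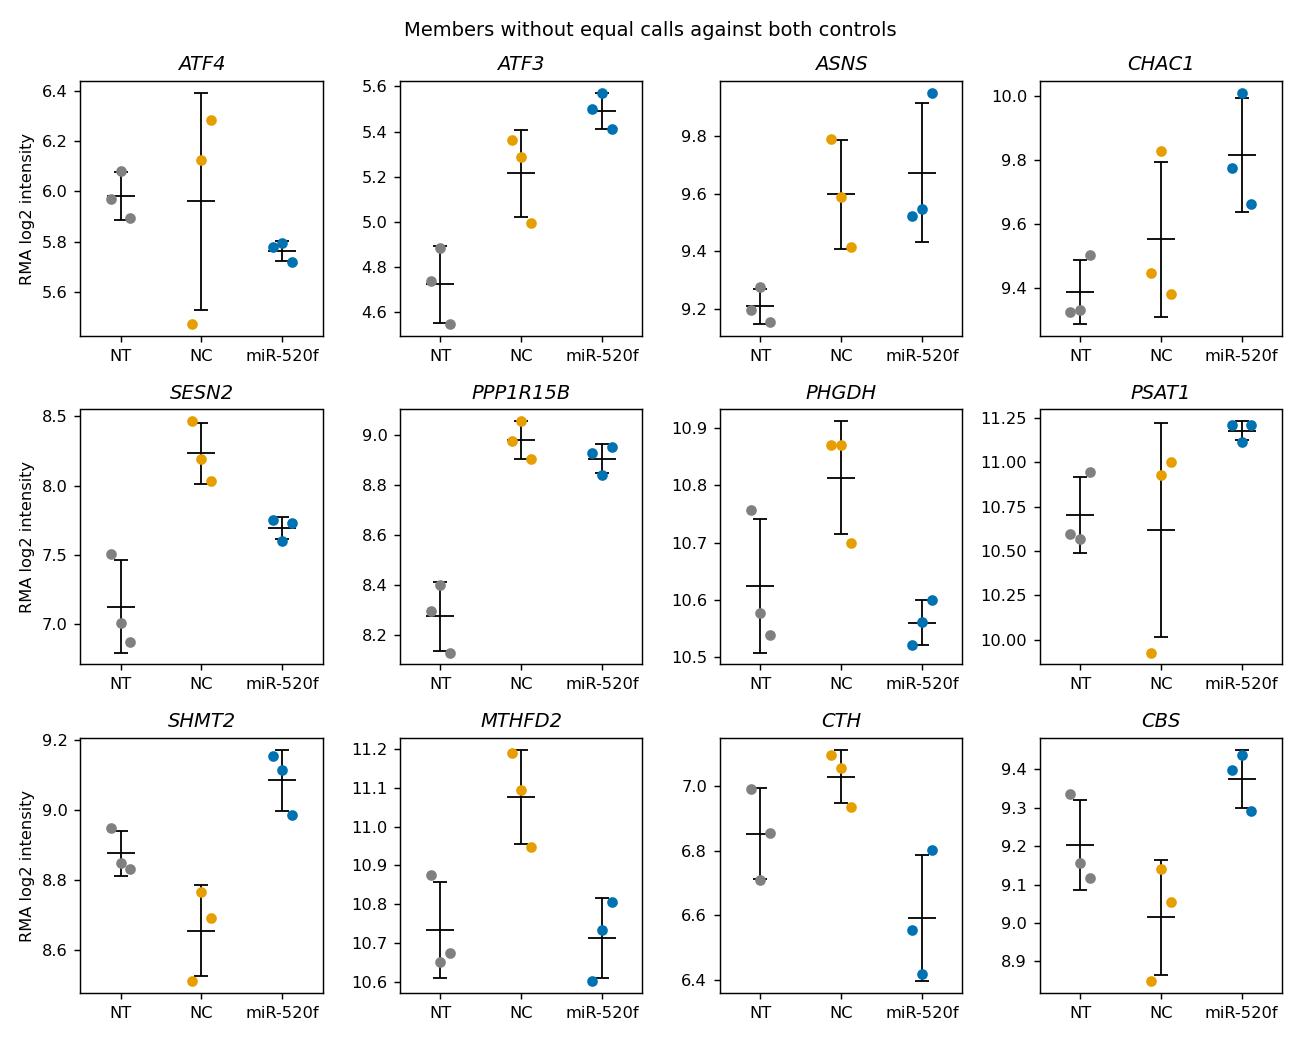
RMA log2 intensity of 12 members that were not called with equal sign against both controls, drawn as points per array with the mean ± SD of 3 arrays (NT non-transfected, NC negative control), each on its own axis. SESN2 with miR-520f lies between the controls, PPP1R15B is raised in both mimic groups, and 1 negative control array of PSAT1 lies at 9.93 while the others of that group are at 10.93 and 11.00.

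In one-carbon metabolism SHMT1 and SHMT2, the cytosolic and mitochondrial enzymes that split serine into glycine and a folate-bound carbon, were highest on the miR-520f arrays. SHMT1 was at 4.30, 4.21 and 4.32 in non-transfected, 4.11, 4.37 and 4.64 in negative control and 4.86, 4.73 and 4.86 in miR-520f cells, where it lay above all controls. It rose by 0.54 and 0.44 (SE 0.11 each, adjusted p = 0.00430 and 0.0133), and the call against the negative control was lost without miR-520f replicate 1 (adjusted p = 0.0505). SHMT2 measured 8.95, 8.85 and 8.83, then 8.51, 8.76 and 8.69, then 9.15, 9.11 and 8.98 in the same order, also with the miR-520f arrays on top. It was called against the negative control (0.43, SE 0.08, adjusted p = 0.00267), and differed from non-transfected cells by 0.21 (adjusted p = 0.1003), where it passed without negative control replicate 1 (0.0451).

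The mitochondrial folate enzyme MTHFD2, a frequent ATF4 target in tumour cells, did not follow them. Its values were 10.88, 10.65 and 10.68 in non-transfected, 11.19, 11.09 and 10.95 in negative control and 10.60, 10.73 and 10.81 in miR-520f cells. The negative control arrays lay above all other arrays, and miR-520f differed from non-transfected cells by -0.02 (95% interval -0.23 to 0.18). Against the negative control MTHFD2 was 0.36 lower (log2 fold change -0.36, SE 0.09, adjusted p = 0.0121), a call lost without miR-520f replicate 1 (0.0625). Its cytosolic relative MTHFD1 was not called (-0.05 and 0.03), nor was ALDH18A1, which starts proline synthesis (-0.19 and -0.11).

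The transsulfuration enzymes, which pass homocysteine on to cysteine, had opposite signs. CBS, which joins serine to homocysteine, was 0.36 higher than in the negative control (SE 0.09, adjusted p = 0.0132; lost without miR-520f replicate 2, adjusted p = 0.0530) and 0.17 above non-transfected cells (adjusted p = 0.238). CBS has a near-identical annotated copy, CBSL, so its signal may not be its own. CTH, which releases cysteine, was 0.44 lower than in the negative control (log2 fold change -0.44, SE 0.11, adjusted p = 0.00989) and 0.26 below non-transfected cells (-0.26, adjusted p = 0.107), where it passed without miR-520f replicate 3 (0.0271). The values of CTH were 6.99, 6.71 and 6.86 in non-transfected, 7.10, 7.06 and 6.94 in negative control and 6.55, 6.42 and 6.80 in miR-520f cells.

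The negative control mimic was itself compared with the reagent alone, since those groups differ by an RNA other than the miR-520f mimic; its sequence is not given in the labels. Of the 33 members, 6 were higher (SESN2, PPP1R15B, STC2, ATF3, DDIT3 and MTHFD2) and 2 lower (NUPR1 and EIF2B1), beside 7.00% and 8.28% of all genes. STC2 stood 0.56 higher (SE 0.13, adjusted p = 0.0134; without non-transfected replicate 2, adjusted p = 0.0547) and NUPR1 0.57 lower (log2 difference -0.57, SE 0.11, adjusted p = 0.00444). The call of DDIT3 (0.45, adjusted p = 0.0492) was lost without any of 7 single arrays, namely non-transfected replicates 2 and 3 (adjusted p = 0.0874 and 0.167), negative control replicates 1 and 2 (0.0601 and 0.166) and each miR-520f array (0.0578 to 0.0692). That of MTHFD2 (0.34, adjusted p = 0.0291) was lost without non-transfected replicate 2 or 3 (0.124 and 0.0924) or negative control replicate 1 or 2 (0.0780 and 0.0802). DDIT3 also lost its call after centring the arrays on the median (adjusted p = 0.0683), and MTHFD2 after a further quantile normalization (0.068). STC2, ATF3, DDIT3 and MTHFD2 were not called without variance moderation (adjusted p = 0.0843, 0.0722, 0.176 and 0.0867). Without negative control replicate 1, JDP2 was called higher as well (0.33, adjusted p = 0.0399). By group mean, STC2, DDIT3 and ATF3 were highest with miR-520f, lowest without RNA and intermediate with the control mimic; the step of ATF3 between the mimics was not called.

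Further genes of the pathway were taken from lists kept apart from the members. Among 15 measured subunits and regulators of eIF2 and eIF2B, 2 rose and 1 fell against both controls, beside 9.37% and 8.61% of all genes. DNAJC3 (p58IPK), an inhibitor of the eIF2 kinases, rose by 0.58 and 1.46 (adjusted p = 0.0107 and 2.25e-05), and the negative control differed from non-transfected cells by -0.88 (adjusted p = 0.00206). The catalytic phosphatase subunit PPP1CC rose by 0.41 and 0.86, and DELE1, which relays mitochondrial stress to EIF2AK1, fell with log2 fold changes of -0.39 and -0.42 (adjusted p = 0.0233 and 0.0146).

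Of 16 basic leucine zipper factors that can pair with members, 2 rose and 3 fell against both controls, beside 9.37% and 8.61% of all genes. The falls were in the AP-1 factors FOSL1 (-1.15 and -1.63) and JUN (-0.61 and -0.90) and in ATF2 (-0.46 and -0.49). Among 16 further targets of ATF4 or CHOP, 1 rose and 4 fell against both controls, beside the same shares of all genes. ADM2, a secreted peptide, rose by 0.59 and 0.67 (adjusted p = 0.00186 and 0.000725). HMOX1, the haem oxygenase that NRF2 also controls, fell (-1.46 and -0.68), as did the translation repressor EIF4EBP1 (-0.57 and -0.65).

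Of 14 amino acid transporters, 7 were higher and 2 lower than in non-transfected cells, beside 14.5% and 13.1% of all genes. Against the negative control 3 were higher and 1 lower, beside 15.4% and 12.6%. With the negative control 3 were higher and 1 lower than without RNA, beside 7.00% and 8.28%. Against both controls 3 rose and 1 fell, beside 9.37% and 8.61%. SLC7A3, a carrier of cationic amino acids, rose by 0.92 and 0.85 from levels near the lower end of the scale, and the lysosomal carrier SLC36A1 by 0.60 and 1.32. The glycine carrier SLC6A9 fell (-0.62 and -0.73). SLC7A11, the cystine carrier and an ATF4 target, chosen after its values were seen, was higher with both mimics (0.79 for miR-520f, adjusted p = 0.000118, and 0.76 for the negative control, adjusted p = 0.000463, against non-transfected cells), as were PPP1R15B and SESN2.

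Among 18 cytosolic aminoacyl-tRNA synthetases, many of which ATF4 can induce, 3 rose and 3 fell against both controls, beside 9.37% and 8.61% of all genes. WARS1, which interferon also induces, fell by 1.43 and 0.88 (log2 fold changes -1.43 and -0.88, adjusted p = 7.59e-07 and 1.95e-05), HARS1 fell (-0.66 and -0.63), and AARS1 rose by 0.39 and 0.38. In the folate cycle and glycine cleavage, 2 of 17 rose and 3 fell against both controls, beside the same shares of all genes. MAT2B, the regulatory subunit of methionine adenosyltransferase (-1.19 and -1.16), and the glycine decarboxylase GLDC (-0.62 and -0.49) were among the falls. The folate carrier SLC19A1 (0.34 and 0.74) was among the rises. Of 7 genes of glutamine, aspartate and proline metabolism, only the aspartate aminotransferase GOT1 was called against both controls (0.30 and 0.35), again beside those shares.

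The other arms of the unfolded protein response were read from 21 chaperones, sensors and targets of the endoplasmic reticulum. Of these, 2 rose and 1 fell against both controls, beside 9.37% and 8.61% of all genes. The sensors ERN1 (IRE1, 0.66 and 0.74) and ATF6 (0.64 and 0.37) rose, and the reductase DNAJC10 fell (-0.43 and -0.85). ATF6 is also 1 of the 2 rises counted among the basic leucine zipper factors above. HSPA5 (BiP), the main chaperone of the compartment, differed by 0.07 from non-transfected cells (adjusted p = 0.752) and by 0.38 from the negative control (adjusted p = 0.0172), and was named after its values were seen. None of these lists was given a test of its own, and their shares are set beside the 9.37% and 8.61% of all genes in the plot of lists. Dim genes lower the share of all genes. Without genes under the median gene mean, 3423 genes were called against non-transfected cells (3927 before). Against the negative control 3556 were called (3996 before), and between the controls 2026 (2174 before). A list share above that of all genes is therefore not read as a trait of the list.

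**Figure D5:**
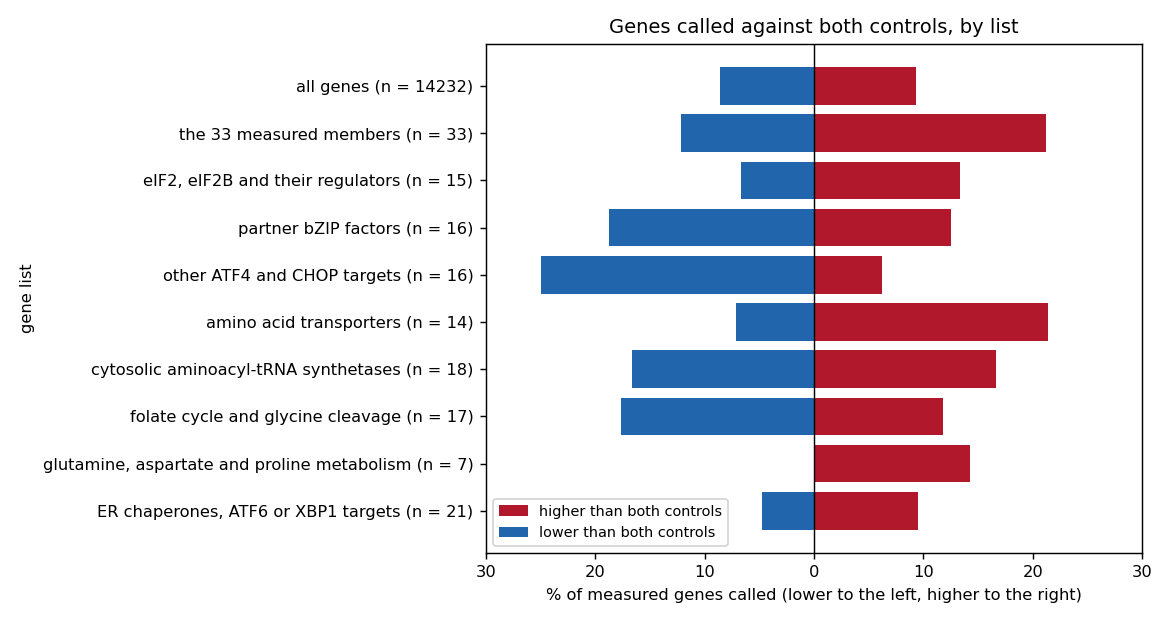
Share of measured genes in each list that was higher (red, to the right) or lower (blue, to the left) with miR-520f against both controls, in percent of the n genes given beside each name. The members reach 21.2% and 12.1%, the amino acid transporters 21.4% and 7.14%, the further ATF4 or CHOP targets 6.25% and 25.0%, and all genes 9.37% and 8.61%. All genes include the dimmer ones, which were called less often.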

How the data were processed

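All 9 arrays came as a single series table in which the authors gave 22011 probe sets on the log2 scale. The submitters' processing notes name Partek 6.6, RMA and hg18; settings are not given in the sources used here. RMA normally sets arrays to a common distribution, but the array medians here still ran from 4.22 to 4.34. Probe sets with 1 gene symbol numbered 14432, with several 2408, and 5171 were not named here; 197 genes had more than 1 and kept the one with the highest mean, and all 33 measured members had 1. Entrez identifiers matched 14205 genes to GRCh38.p14 with 0 changed symbols. One limma model (limma 3.58.1, R 4.3.3) had a mean per group over 9 arrays and 6 residual degrees of freedom; p-values were adjusted by Benjamini-Hochberg over 14232 genes. The model was tested on simulated data. Depth has no meaning for arrays; their number limits the precision. Members and lists were chosen with earlier results of these data known. All members are accounted for; of other lists, up to 3 genes called against both controls were named, ranked by the smaller of the paired changes. The design text's unmoderated model was an alternative.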

Additional observations from a re-analysis of the deposited data

How the results depend on the processing

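Of 99 member values (33 members in 3 comparisons), 42 were called, 27 of them under every alternative run, and 0 called values changed sign in 1773 recomputed values, of which 77 lost a call and 25 gained one. Of these gains 8 came without negative control replicate 1, and of the losses 12 came without variance moderation. Against non-transfected cells those 12 were ASNS, CHAC1, SESN2, CEBPG and NUPR1. Against the negative control they were SESN2, PHGDH and SHMT1, and between the controls ATF3, DDIT3, STC2 and MTHFD2. The members called against both controls numbered 5 to 9 higher and 4 to 6 lower when single arrays were left out. In the comparison of the controls, all genes called fell from 2174 to 1287 without moderation and ranged from 1394 to 2181 without single arrays. There the members called higher went from 6 to 2 without moderation and ranged from 3 to 7 without single arrays, and those called lower went from 2 to 1 with a trended robust fit or with only the 2 groups compared, and from 1 to 2 without single arrays. The labels do not say that replicate numbers pair the arrays, and the data gave at most a weak hint of it. Over 9 pairs of equal number the correlation of deviations ran from -0.03 to 0.20 and was above 0.1 in 4. Between unequal numbers it ran from -0.44 to 0.33, so the highest correlation was between unequal numbers. In 11 of 18 pairings of an array with another group the best correlation was with its own number. With the replicate block, 8 members rose and 4 fell against both controls (ATF3 being gained) and 4060, 4159 and 2297 genes were called against non-transfected cells, against the negative control and between the controls. Centring arrays on the median moved the median gene by at most 0.07, and the genes called higher and lower became 2372 and 1475 against non-transfected cells (2061 and 1866 before) and 2394 and 1520 against the negative control (2196 and 1800 before). No background signal was used, so dim members carry no detection call, and a limit on precision is set by 3 arrays a group.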
